A study of Mus musculus with 7 samples.

Results

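The adult mouse esophagus was compared with the adult mouse intestine, gene by gene, on 1 array of each organ. These were 2 of the 7 arrays of a study of stomach tissue grown from mouse embryonic stem cells, in which freshly isolated adult organs served as references. Both organs came from ICR mice, an outbred stock, described only as adult. The number and sex of the animals and the stretch of intestine taken were not given. Total RNA was labelled with Cy3 and hybridized to 1-colour Agilent whole-genome arrays, and the adult lung and adult stomach arrays lay on the same slide. A gene entered the comparison when its signal was well above background, by the scanner software's own flag, on at least 1 of the 2 arrays. This held for 14939 of the 16998 named genes with a probe.

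The esophagus of the mouse is lined by a stratified squamous epithelium, in which basal cells divide and their daughters build cornified cells as they move to the surface, and its outer muscle is striated. The intestine is lined by a single layer of columnar cells, made up of absorptive enterocytes with a brush border, mucus-secreting goblet cells, Paneth cells that release antimicrobial peptides, and hormone-secreting enteroendocrine cells, and its muscle is smooth. The esophagus forms from the anterior foregut, patterned by factors such as Sox2 and Trp63, whereas Cdx2 and the Hnf4 factors maintain the intestinal programme.

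Levels are given as the log2 of the processed signal minus the array's 75th percentile, so 0 is the 75th percentile of that array, and a difference is the esophagus level minus the intestine level. With 1 array on each side there was no replicate of either organ and no test; sizes, counts and ranges are given instead, and a gene was counted as different at 4-fold, a log2 difference of 2. The errors that could be measured were technical. Spots of the same probe had a median SD of 0.084 on the esophagus array and 0.083 on the intestine array, and different probes of 1 gene differed with an SD of 0.58 over 4678 genes. Where a gene was not well above background on 1 array, its fold is a lower bound, written as at least, set against the lowest level measured above background on that array (-6.12 for esophagus and -6.18 for intestine). Signals of different probes are not on a shared scale, so levels are compared between arrays and not between genes.

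Of the 14939 genes, 13702 were well above background on both arrays, 559 on the esophagus array alone and 678 on the intestine array alone. The median difference over all of them was 0.007, with quartiles at -0.84 and 0.85. At least 4-fold higher levels were found for 1403 genes in esophagus (9.39% of those compared) and for 1624 in intestine (10.9%). The counts fell to 448 and 538 at 16-fold, to 118 and 153 at 256-fold, and to 19 and 28 at 4096-fold. Among the other probes of genes that differed 4-fold, 780 of 821 (95%) pointed the same way and 578 (70.4%) also reached 4-fold.

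**Figure D1:**
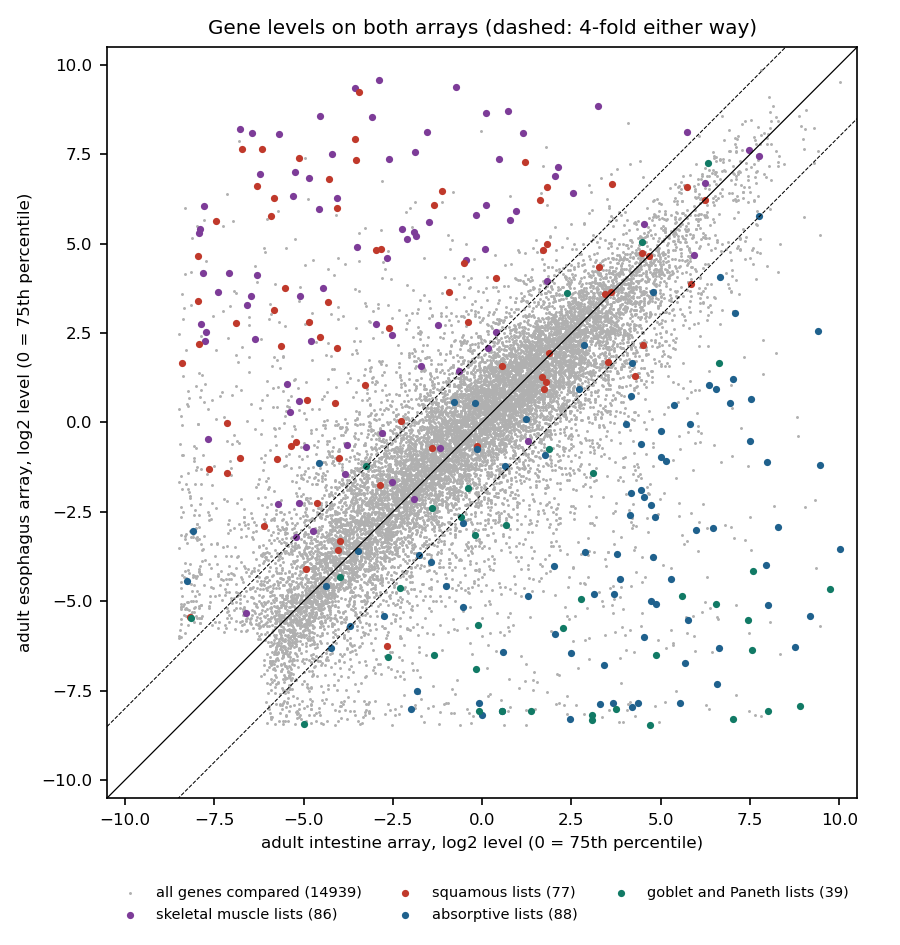
Each point is 1 of the 14939 genes compared, at its log2 level on the intestine array (horizontal) and the esophagus array (vertical), where 0 is the 75th percentile of each array. Dashed lines mark 4-fold either way. Most skeletal muscle and squamous list genes lie above the upper dashed line and most absorptive, goblet and Paneth list genes below the lower one.

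Genes typical of lung were also measured on the esophagus array, and their source was not tested. In a list of lung and airway genes drawn up after the values were seen, 18 of 19 genes were well above background on the esophagus array, 13 on the intestine array, 17 on the stomach array and all 19 on the lung array. Their summed signal, in multiples of the 75th percentile, was 260 in esophagus, 10.6 in intestine, 69.1 in stomach and 3390 in lung. Sftpc, a surfactant protein made by alveolar cells, was at 5.12 in esophagus, -5.24 in intestine, -0.74 in stomach and 9.71 in lung, so that its esophagus signal was 4.15% of the lung signal. The esophagus signal of 6 other alveolar genes, Sftpa1, Sftpb, Sftpd, Ager, Cldn18 and Nkx2-1, was between 1% and 1.24% of that in lung. Further genes of the list lay outside that range. Napsa, Abca3 and Slc34a2 were lower in esophagus than in intestine (differences -0.85, -0.82 and -1.95). Their esophagus signal was 2.55%, 14% and 2.08% of that in lung, and that of Aqp5 and Lamp3 was 1.5% and 6.32%. The club-cell genes Scgb1a1 and Cyp2f2 were at 5.72% and 28.9%, and Foxj1, which drives formation of motile cilia, was not well above background. The Sftpc share of 4.15% thus lay above that of the 6 alveolar genes and below that of Lamp3, Abca3 and the 2 club-cell genes. When 4.15% of the lung signal was taken off every esophagus value, 1320 genes remained at least 4-fold higher in esophagus. What is lost by this subtraction depends on the share chosen, and other shares were not tested. The 39 skeletal sarcomere genes and 46 upper squamous genes described next were as many after that subtraction.

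Keratins, the intermediate filament proteins of epithelia, separated the organs in both directions: 14 of 29 were at least 4-fold higher in esophagus and 6 in intestine, against 9.39% and 10.9% of all genes compared, and the median difference was 1.81 against 0.007 for all genes. In whole organs, fewer cells of a type and less RNA per cell cannot be told apart. The basal-layer keratin Krt5 was at 7.94 in esophagus and -3.56 in intestine, 2890-fold higher in esophagus. Krt15 (6.82 and -4.28) and Krt14 (4.86 and -2.82) were 2205-fold and 205-fold higher. These 3 basal keratins thus had levels well above the 75th percentile in esophagus and below it in intestine. The keratins of the upper layers of internal squamous epithelia differed by as much. Krt4 was at 6.61 in esophagus and not well above background in intestine, at least 7066-fold higher, and its partner Krt13 was at 6.48 and -1.13, 196-fold higher, a difference of 7.61 that was 11.41 over the mean of its probes. Krt78 was at least 3324-fold higher.

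The keratins of cornified skin were low in esophagus and far lower than in stomach. Krt1 was at -2.89 in esophagus and -6.1 in intestine, and Krt10 at -2.25 and -4.63, differences of 3.21 and 2.38. With normexp background correction these differences were 0.56 and 0.81. On the stomach array the same probes read 7.14 for Krt1 and 6.55 for Krt10, whereas Krt5 (6.31), Krt4 (4.56) and Krt13 (4.5) were lower there than in esophagus. Keratins induced in wounded or rapidly renewing epithelium were modest. Krt6a and Krt6b were below the 75th percentile in both organs and 25.7-fold and 26.6-fold higher in esophagus, while Krt16 (difference 0.69) and Krt17 (1.81) were within 4-fold.

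The keratins of simple epithelia ran the other way. Krt20, found in differentiated intestinal cells, was at 9.46 in intestine and not well above background in esophagus, at least 36589-fold higher in intestine. Krt8 was at 8.83 in intestine and -0.39 in esophagus (595-fold), and Krt18 and Krt19 were 35.5-fold and 25.3-fold higher in intestine. On the stomach array Krt8 was at 7.99 and Krt20 at 3.66. The type II keratin genes lie side by side on mouse chromosome 15, from Krt80 to Krt18: of 15 compared there, 8 were 4-fold higher in esophagus and 3 in intestine. Krt8 and Krt18, at one end of that cluster, and Krt7 were the 3, and a run of 5 consecutive genes from Krt1 to Krt78 were all higher in esophagus.

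Basal cells of squamous epithelium also carry hemidesmosome and laminin genes, and several of these did not follow the basal keratins. Of 18 basal genes compared, 7 were at least 4-fold higher in esophagus and none in intestine, with a median difference of 0.76. The 7 were Krt5, Krt15, Krt14, the hemidesmosomal collagen Col17a1 (at least 499-fold), the basal cell factor Trp63 (at least 329-fold), the desmosomal plaque protein Pkp1 (170-fold) and the desmosomal cadherin Dsg3 (at least 71.3-fold). Integrin Itgb4 was at 4.66 on both arrays, Egfr differed by 0.07 and Sfn by 0.15. The integrin Itga6 (difference -1.85) and the laminin chain Lamb3 (-0.39) were somewhat lower in esophagus, within 4-fold.

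Genes of the upper squamous layers made up one of the groups with the largest differences. Of 59 compared, 46 were at least 4-fold higher in esophagus and 3 in intestine, and the median difference was 4.76. Loricrin (Lor), a main protein of the cornified envelope, was at 9.23 in esophagus and -3.44 in intestine, 6491-fold higher. Krtdap, a secreted protein of differentiating keratinocytes, was at 7.64 and not well above background in intestine (at least 14354-fold). On the lung array Lor was at -0.8, and on the stomach array at 9.59. Other envelope and surface proteins followed. Cnfn was 1849-fold higher, Sprr3 at least 3576-fold, the calcium-binding Calml3 4451-fold, and the protease inhibitor Spink5 at least 1821-fold. Enzymes that cross-link or modify the envelope were also higher, with Tgm3 205-fold, Aloxe3 201-fold and Tgm1 122-fold. The envelope scaffold proteins Ppl and Evpl were 31.6-fold and 8.13-fold higher.

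A few classical cornification genes departed from the rest. Ivl and Flg2 were not well above background in either organ. Sprr2b (2.16 in esophagus, 4.49 in intestine) and Sprr2e (1.29 and 4.28) were 5.02-fold and 7.96-fold higher in intestine, and Sprr2a1 was at 6.22 and 6.23 at its brightest probe but differed by -1.51 over the mean of its probes. Sprr2d was at least 36.5-fold higher in esophagus. The Sprr2 genes are near-identical copies, so the share of each in these signals is uncertain. A2ml1, a protease inhibitor, was the third gene of the list higher in intestine (at least 10.9-fold). Of the alarmins, S100a9 was 9.27-fold higher in esophagus and S100a8 differed by 1.1, or by -0.48 after the lung signal was subtracted.

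Many of these genes lie together on mouse chromosome 3 in the epidermal differentiation complex. Between S100a10 and S100a1, 41 protein-coding genes were compared, of which 27 were at least 4-fold higher in esophagus and 3 in intestine, with a median difference of 4.58. From Sprr1b to Rptn, 20 consecutive compared genes were higher in esophagus, the longest run of the comparison, with a median difference of 11.49. It held the late cornified envelope genes, among them Lce3f (at least 14420-fold), Lce3c (5927-fold), Lce1d (at least 6019-fold) and Lce1a1 (3186-fold), and Crct1 (at least 16902-fold). The late cornified envelope genes are close copies too, and their separate values are uncertain for that reason. The 3 genes higher in intestine were Sprr2b, Sprr2e and Sprr2k.

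**Figure D2:**
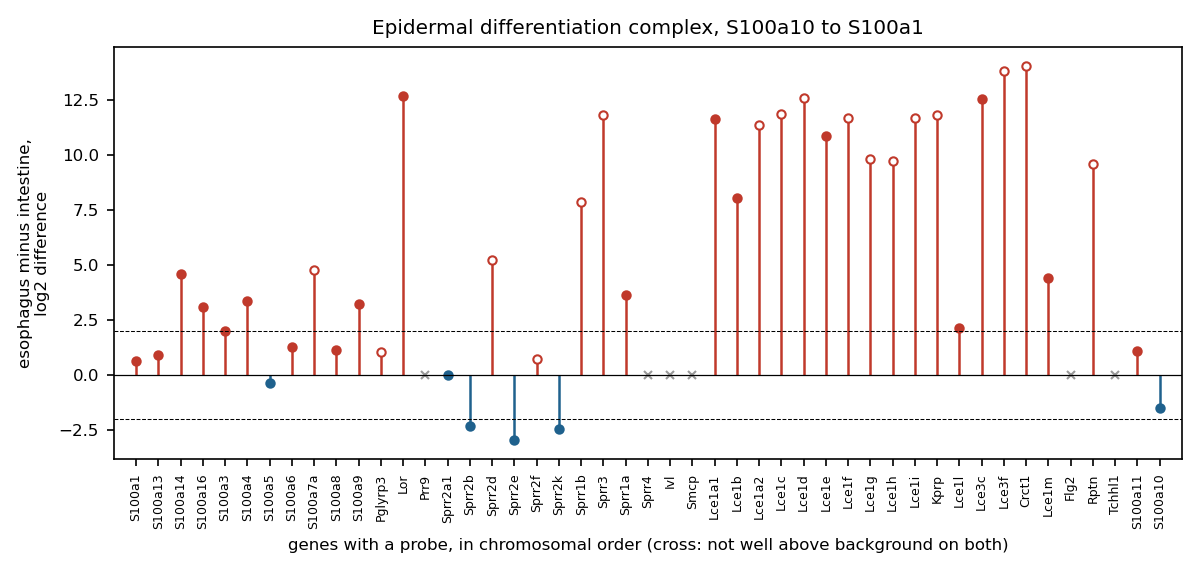
The esophagus minus intestine log2 difference of each gene with a probe in the epidermal differentiation complex, in chromosomal order. Filled circles were measured on both arrays, open circles are lower bounds, crosses were not well above background on both, and dashed lines mark 4-fold. From Sprr1b to Rptn every compared gene is above the upper dashed line, and Sprr2b, Sprr2e and Sprr2k are below the lower one.

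Other tandem families of squamous epithelium formed runs as well. On chromosome 1, 11 consecutive genes from Serpinb5 to Serpinb8, a family of serine protease inhibitors, had a median difference of 6.86, with Serpinb12 at least 4589-fold and Serpinb2 25.4-fold higher in esophagus. On chromosome 7, 7 kallikrein genes from Klk14 to Klk5, proteases of squamous shedding, had a median of 4.87. On chromosome 2, 4 interleukin-1 family genes from Il1f8 to Il1f5 had a median of 6.11, and on chromosome 15, 5 genes from Slurp1 to Ly6k had a median of 3.48. Slurp1, a secreted protein of the Ly6 family, was at 4.4 in esophagus and -4.95 in intestine.

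The 250 bases before the start of Krtdap and Lor are shown because both hold the AP-1 motif, bound by Fos and Jun factors, which of the 9 motifs searched stood furthest above all promoters in the squamous lists. Promoters were taken from RefSeq on build GRCm38.p6, from 250 bases before to 50 after each start. The motif TGANTCA, on either strand, was found in 37% of 46 promoters of squamous list genes 4-fold higher in esophagus, in 6.11% of the promoters of all genes compared and in 7.81% of all promoters in the table. The 46 promoters came from 37 of the 53 squamous genes, since a gene could have several promoters or none. A match is a description of the letters and not a bound site. The squamous promoters had a median of 5 CpG pairs, against 17 over all genes compared. This was not particular to them. The median was 6 for the skeletal muscle list genes higher in esophagus, 7 for the absorptive list genes higher in intestine and 7 for all promoters in the table. Krtdap lies at chr7:30787655-30787904 on the plus strand and Lor at chr3:92083143-92083392 on the minus strand, with the motif in capitals, starting 81 and 48 bases before the start.
Krtdap: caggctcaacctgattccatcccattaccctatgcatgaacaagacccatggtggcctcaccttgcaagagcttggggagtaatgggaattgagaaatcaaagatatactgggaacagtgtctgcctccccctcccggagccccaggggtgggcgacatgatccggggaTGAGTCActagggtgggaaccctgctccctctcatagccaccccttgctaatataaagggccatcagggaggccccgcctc
Lor: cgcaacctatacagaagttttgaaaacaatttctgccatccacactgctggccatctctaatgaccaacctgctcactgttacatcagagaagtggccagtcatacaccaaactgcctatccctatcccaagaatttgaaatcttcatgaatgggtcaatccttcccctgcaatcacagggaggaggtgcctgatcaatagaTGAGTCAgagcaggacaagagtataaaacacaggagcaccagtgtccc

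Cell junction genes divided by family member. Among 14 desmosome genes, 6 were 4-fold higher in esophagus and 2 in intestine. The squamous cadherins Dsg1b (1.87 and -5.58, 175-fold) and Dsg3 were higher in esophagus, and the cadherin and plaque protein of simple epithelia, Dsg2 (-2.81 and 3.01, 56.4-fold) and Pkp2 (11.8-fold), were higher in intestine. Among 18 claudins, which seal tight junctions, 6 were higher in each organ. Cldn7 was at 7.54 in intestine and -3.57 in esophagus (2212-fold), and Cldn3 and Cldn15 were 143-fold and 86.3-fold higher in intestine. Cldn17 and Cldn8 were at least 36-fold and at least 20-fold higher in esophagus, and Cldn1 differed by 0.78. Cldn5, also higher in esophagus (7.07-fold), is an endothelial claudin, and Cldn18 is one of the lung list.

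Skeletal muscle genes gave the largest median in favour of esophagus. Of 43 sarcomere genes compared, 39 were at least 4-fold higher in esophagus and none in intestine, with a median difference of 8.55. The fast myosin heavy chains Myh1, Myh2 and Myh4 were at 8.2, 7.51 and 7 in esophagus. Myh1 was not well above background in intestine (at least 21210-fold), and Myh2 and Myh4 were at -4.21 and -5.25 there (3373-fold and 4876-fold). The perinatal myosin Myh8, at 9.36 and -3.57, was 7786-fold higher. In the myosin cluster on chromosome 11 all 4 compared genes were thus higher in esophagus, with a median of 12.59. A second, dimmer Myh1 probe was above background on both arrays and differed by 7.59. Probes of these highly similar genes can share signal.

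The slow fibre programme was present with smaller differences. The slow myosin Myh7, also made in heart, was at 6.08 in esophagus and 0.1 in intestine, 63-fold higher. The slow troponins Tnni1, Tnnc1 and Tnnt1 were 298-fold, 93-fold and 31.5-fold higher, and the fast troponins Tnnt3, Tnnc2 and Tnni2 were 8875-fold, 5635-fold and 1107-fold higher. For each troponin subunit the fast form thus differed more than the slow one. The skeletal actin Acta1 (8.85 and 3.25) was 48.3-fold higher, the giant protein titin (Ttn) 1301-fold, and the M-band protein Myom2 at least 9004-fold. Desmin, also a smooth muscle filament, differed by 1.02 and the tropomyosins Tpm2 and Tpm3 by 0.15 and -1.24. Tpm1 differed by 2.37 at its brightest probe and by -0.07 over the mean of all its probes.

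**Figure D3:**
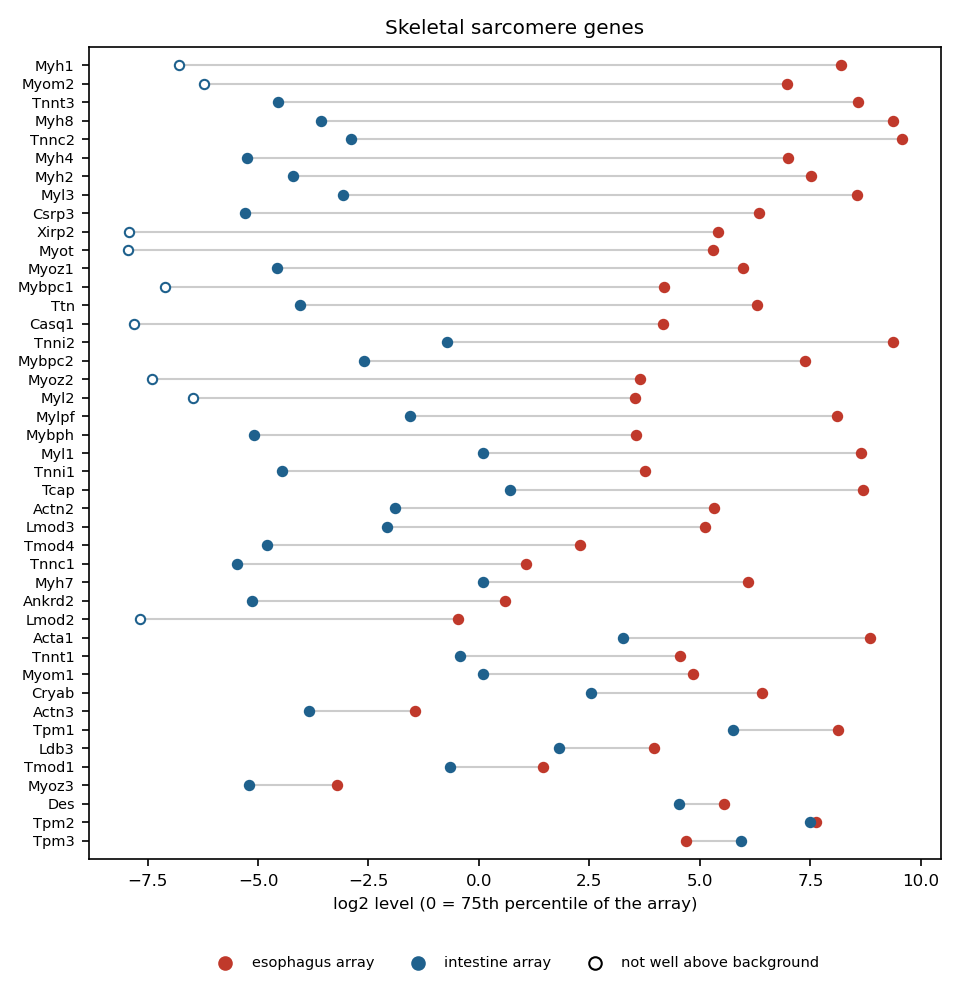
Log2 levels (0 is the 75th percentile of the array) of the 43 compared sarcomere genes on the esophagus array (red) and intestine array (blue), ordered by difference; open circles were not well above background. All but Myoz3, Des, Tpm2 and Tpm3 were at least 4-fold higher in esophagus.

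Genes of excitation and energy supply followed. Of 44 compared, 35 were at least 4-fold higher in esophagus and none in intestine, with a median difference of 5.34. Sarcolipin (Sln), a regulator of the calcium pump, was at 8.09 and not well above background in intestine (at least 19738-fold), and the oxygen store myoglobin (Mb) was at 8.08 and -5.68 (13853-fold). Mb was at 2.65 on the lung array and -5.58 on the stomach array. The fast calcium pump Atp2a1 was 153-fold higher, the release channel Ryr1 334-fold, calsequestrin Casq1 at least 1300-fold, and muscle creatine kinase Ckm 119-fold. Receptor subunits of the neuromuscular junction did not move together. Chrna1 was at least 365-fold and Chrnb1 8.94-fold higher in esophagus, the embryonic subunit Chrng differed by 1.71, Chrnd by -0.24 and the adult subunit Chrne by -1.81.

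Regulators of muscle identity were 4-fold higher in esophagus for 14 of 22 genes compared and for none in intestine, with a median of 3.64, or 1.21 with normexp background correction. Myf6, the myogenic factor kept in mature fibres, was at 2.9 and not well above background in intestine (at least 473-fold). Myog and Myod1 were at 0.97 and -1.63 in esophagus and 69.8-fold and 21.4-fold higher. Myf5 and Pax3 were not well above background in either organ, and the satellite cell factor Pax7 differed by 1.28. Factors of head and branchial muscle were among the higher genes, with Tbx1 (4.8 and -2.64) 173-fold and Isl1 4.16-fold. Myostatin (Mstn), which limits muscle growth, was at least 68.2-fold higher.

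The promoters of Mb and Myh4 are shown because they hold the E-box CAGCTG, a motif bound by myogenic factors. It was found in 46.6% of 73 promoters of muscle list genes 4-fold higher in esophagus, which came from 56 of 73 genes. The share was 16.1% for promoters of all genes compared and 16.3% for all in the table. The CArG box, bound by serum response factor, was found in 9.59% of the muscle promoters and in 1.44% of those of all genes compared. The E-box, in capitals, starts 133 bases before the start of Mb (chr15:77022788-77023037, minus strand) and 67 bases before that of Myh4 (chr11:67237562-67237811, plus strand), on build GRCm38.p6.
Mb: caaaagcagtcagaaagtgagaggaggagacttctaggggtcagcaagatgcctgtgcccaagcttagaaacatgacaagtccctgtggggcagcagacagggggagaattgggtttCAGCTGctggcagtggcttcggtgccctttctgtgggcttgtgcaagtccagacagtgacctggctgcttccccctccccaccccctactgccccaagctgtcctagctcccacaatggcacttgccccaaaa
Myh4: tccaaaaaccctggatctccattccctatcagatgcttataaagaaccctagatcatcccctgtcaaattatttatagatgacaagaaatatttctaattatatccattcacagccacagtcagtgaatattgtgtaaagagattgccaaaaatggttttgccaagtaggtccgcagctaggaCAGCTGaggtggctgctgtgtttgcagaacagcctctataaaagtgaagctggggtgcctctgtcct

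Smooth muscle genes differed by less than sarcomere genes, with a median of -0.84 against 8.55. Of 28 compared, 3 were 4-fold higher in esophagus and 4 in intestine, against 9.39% and 10.9% of all genes compared. The contractile genes Acta2 (6.77 and 8.08), Myh11 (3.96 and 5.41), Tagln (7.23 and 8.45) and Cnn1 (6.34 and 7.73) had differences from -1.22 to -1.45 and were high on both arrays. Myosin light chain kinase Mylk was 7.51-fold and the muscarinic receptor Chrm2 at least 15.1-fold higher in intestine, and Pcp4, a calmodulin regulator, was 132-fold higher there (-1.96 and 5.08). Of the 14 heart genes 7 were 4-fold higher in esophagus, Myl3, Myl2 and Myh7 among them being shared with slow skeletal fibres, and 2, Tnnt2 (4.16-fold) and Hand2 (9.34-fold), were higher in intestine. The atrial and ventricular genes Nppa, Nppb and Tnni3 differed by less than 1, and Myh6 (142-fold) and Tbx5 (at least 36.6-fold) were higher in esophagus.

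Intestinal absorptive genes gave the mirror image. Of 17 brush border enzymes compared, 15 were at least 4-fold higher in intestine and 1 in esophagus, with a median difference of -7.06. Lactase (Lct) was at 9.19 in intestine and -5.41 in esophagus, 24870-fold higher in intestine. As processed here, this was the largest difference among named genes measured on both arrays. That rank is uncertain. The esophagus level of Lct lay near the lowest measured above background on that array (-6.12), and the mucus protein Zg16 was close behind (21528-fold). Sucrase-isomaltase (Sis) was at 7.99 and -5.09 (8650-fold), trehalase (Treh) at least 6656-fold and intestinal alkaline phosphatase (Alpi) at least 3559-fold higher. The peptidases Anpep and Dpp4 were 115-fold and 38.5-fold higher. A second Alpi probe was above background on both arrays and differed by -4.38. The exception was the tissue-nonspecific alkaline phosphatase Alpl, 10.9-fold higher in esophagus.

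Structural genes of the columnar cell and its brush border followed the enzymes, with 23 of 26 at least 4-fold higher in intestine, none in esophagus and a median of -6.83. Villin (Vil1), which bundles actin in microvilli, was at 8.34 in intestine and not well above background in esophagus (at least 22516-fold). The microvillar cadherins Cdhr2 and Cdhr5 were at least 2997-fold and 2437-fold higher, and the motor Myo1a 1136-fold. The pan-epithelial adhesion gene Epcam was at 5.34 and -1.05, 83.8-fold higher in intestine.

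Of 43 nutrient transporters, 34 were at least 4-fold higher in intestine and none in esophagus, with a median of -6.12. The sugar carriers Slc5a1, Slc2a5 and Slc2a2 were 368-fold, 508-fold and 91.3-fold higher, the peptide carrier Slc15a1 176-fold, and the amino acid carriers Slc7a9 and Slc6a19 849-fold and 33.4-fold. The sterol exporter Abcg5 was at least 6879-fold higher, while its partner Abcg8 was 11.8-fold higher. Iron carriers differed least, with Slc40a1 at -0.6, Slc11a2 at -1.14 and the duodenal reductase Cybrd1 at -0.23, and the folate carrier Slc46a1 was 83.4-fold higher in intestine.

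Lipid handling genes were 4-fold higher in intestine for 23 of 28 and in esophagus for 1, with a median of -6.27. Fabp2, the intestinal fatty acid binding protein, was at 10.01 in intestine and -3.55 in esophagus (12093-fold), and Fabp1 at 9.47 and -1.18 (1604-fold). The lipoprotein genes Apoa4 (at least 30103-fold), Apoc3 (3960-fold), Apob (2510-fold) and Apoa1 (2356-fold) were higher, as was Mttp (981-fold), which loads lipid onto apolipoprotein B. Within the fatty acid binding family the organs used different members. Fabp3, the muscle form, was 29.7-fold and the retinoic acid binding Crabp2 at least 70.4-fold higher in esophagus.

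The promoters of Fabp2 and Sis are shown because they hold the Cdx motif TTTATNG, bound by Cdx factors. It was found in 23.7% of 76 promoters of absorptive list genes 4-fold higher in intestine, which came from 60 of 72 genes. The share was 7.96% for promoters of all genes compared and 10.9% for all in the table. The Hnf4 motif AAAGTCC was found in 13.2% of the absorptive promoters and in 4.21% of those of all genes compared. The Cdx motif was not particular to these genes, since 20.5% of the muscle promoters held it as well. In capitals, it starts 65 bases before the start of Fabp2 (chr3:122894822-122895071, plus strand) and, as its reverse complement, 52 bases before that of Sis (chr3:72967864-72968113, minus strand), on build GRCm38.p6.
Fabp2: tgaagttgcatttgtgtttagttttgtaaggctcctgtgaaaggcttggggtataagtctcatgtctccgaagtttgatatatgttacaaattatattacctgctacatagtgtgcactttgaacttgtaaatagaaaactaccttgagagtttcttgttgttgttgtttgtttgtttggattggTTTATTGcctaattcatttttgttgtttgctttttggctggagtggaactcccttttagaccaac
Sis: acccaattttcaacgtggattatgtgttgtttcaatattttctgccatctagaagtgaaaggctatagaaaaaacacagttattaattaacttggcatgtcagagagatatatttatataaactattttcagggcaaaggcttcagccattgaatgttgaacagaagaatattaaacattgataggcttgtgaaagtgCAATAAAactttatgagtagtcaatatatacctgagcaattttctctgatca

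Secretory cell genes were also higher in intestine. Of 19 goblet cell genes, 15 were 4-fold higher in intestine and none in esophagus, with a median of -3.55. The trefoil peptide Tff3 was at 8.89 and not well above background in esophagus (at least 32881-fold), the mucus protein Zg16 at 9.74 and -4.65 (21528-fold), and the disulphide isomerase Agr2 at least 2024-fold higher. The goblet factors Atoh1 and Spdef were at least 11.2-fold and at least 46.1-fold higher. The membrane mucin Muc13 was at least 5397-fold higher in intestine, while Muc5ac, Muc5b and Muc1 differed by less than 1 and Muc15 was at least 14.1-fold higher in esophagus.

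Of 20 Paneth cell genes, 15 were 4-fold higher in intestine and 1 in esophagus, with a median of -7.59. The alpha-defensin Defa5 was at 7.56 and not well above background in esophagus (at least 13051-fold), and 8 consecutive genes of the defensin cluster on chromosome 8 had a median difference of -10.89. Defensin genes are near-identical, so their single values are uncertain. The lectins Reg3b and Reg3g were at least 17577-fold and 3151-fold higher. The lysozyme genes did not separate the organs, with Lyz1 at 5.05 and 4.48 and Lyz2, the macrophage form, at 7.27 and 6.33. Lyz1 and Lyz2 were at 7.53 and 8.81 on the lung array and at 3.02 and 5.48 on the stomach array. Whether their probes share signal was not tested. Nod2, a sensor of bacterial peptides, was 4.01-fold higher in esophagus.

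Hormone genes of enteroendocrine cells were higher in intestine for 17 of 26, with a median of -3.23. Secretin (Sct), the incretin Gip, cholecystokinin (Cck) and somatostatin (Sst) were 603-fold, 508-fold, 395-fold and 260-fold higher, and the granule proteins Chga and Chgb 138-fold and 140-fold. Gast and Insl5, hormones of stomach and colon, differed by 0.07 and -0.17, and Neurog3, which specifies these cells, by -0.19. Isl1, also a muscle and neural factor, was 4.16-fold higher in esophagus. Of 13 tuft cell genes, 3 were higher in intestine, among them the channel Trpm5 (at least 29.7-fold), and Chat, shared with cholinergic nerves, was 7.6-fold higher in esophagus.

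Proliferation and crypt genes did not set the organs apart. Of 25 crypt and stem cell genes, 2 were 4-fold higher in esophagus and 3 in intestine, against 9.39% and 10.9% of all genes compared. Their median was 0.28. Lgr5, the crypt base stem cell receptor, was at -3.02 in esophagus and -1.83 in intestine, and Ascl2 at -3.35 and -2.96. The factor Sp5, a Wnt target, was 161-fold higher in intestine, and Ephb3 and Cd44 were 8.87-fold and 5.42-fold higher in esophagus. Of 25 cell cycle genes 2, Mcm5 and Mcm3, were 4-fold higher in esophagus and none in intestine, with a median of 0.57.

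The intestinal sample held transcripts of several segments. Of 14 genes typical of duodenum and jejunum, 9 were 4-fold higher in intestine, with Lct, Apoa4 and Gip among them, although Pdx1 and Gata4 differed by -1.67 and -1.92 and the purine enzyme Ada (adenosine deaminase) was at 8.29 in esophagus and 8.92 in intestine. Of 9 ileal genes 8 were higher, with the bile acid carriers Slc51a and Slc51b at least 1435-fold and at least 731-fold, but the ileal Fabp6 was not well above background and Fgf15 was at -4.29. Of 14 colonic genes 6 were higher in intestine and 2, Slc37a2 (4.24-fold) and Aqp4 (4.15-fold), in esophagus, and Hoxd13 was not well above background. The stretch of intestine was not stated, and these levels come from 1 array.

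Transcription factors of foregut and squamous epithelium were 4-fold higher in esophagus for 21 of 35, and for none in intestine, with a median of 3.05. The median was 0.76 with normexp background correction and 1.87 over the genes well above background on both arrays. Sox2 was at -0.03 in esophagus and not well above background in intestine (at least 71-fold). Trp63, the regulator of stratified epithelia, was at 2.19 (at least 329-fold), and Pax9, needed for squamous differentiation of the esophagus, at 2.81 and -5.68 (361-fold). Sim2 (at least 703-fold), Pitx1 (73.2-fold), Zfp750 (at least 146-fold) and Grhl1 (71-fold) were higher as well. On the stomach array Sox2 was at -0.62, Trp63 at 1.38 and Pitx1 at 5.3, while Pax9 was at -4.12 and Sim2 at -2.01. Barx1, a factor of stomach mesenchyme, was at -2.87 in esophagus, 0.76 in stomach and not well above background in intestine (at least 9.92-fold). The Irx genes Irx5, Irx3, Irx2 and Irx1 were 4-fold higher in esophagus as measured, Irx1 (7.13-fold) only before the lung signal was subtracted.

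Intestinal factors were 4-fold higher in intestine for 20 of 31 and in esophagus for none, with a median of -3.08. Cdx2 was at 3.84 in intestine and not well above background in esophagus (at least 994-fold), and Cdx1 at -0.71 (at least 42.3-fold). Hnf4a and Hnf4g were at least 818-fold and 129-fold higher, and the nuclear receptors Nr1i2 and Vdr at least 339-fold and 31.5-fold. A dimmer Hnf4a probe, above background on both arrays, differed by -3.27. Among the Gata factors, Gata5 and Gata6 were 54.1-fold and 23.3-fold higher, and Gata4 differed by -1.92. The Klf factors shared by both epithelia were close, with Klf4 at 6.18 and 7.11 and Klf5 at 3.32 and 3.49, and Foxa1 differed by 0.48.

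**Figure D4:**
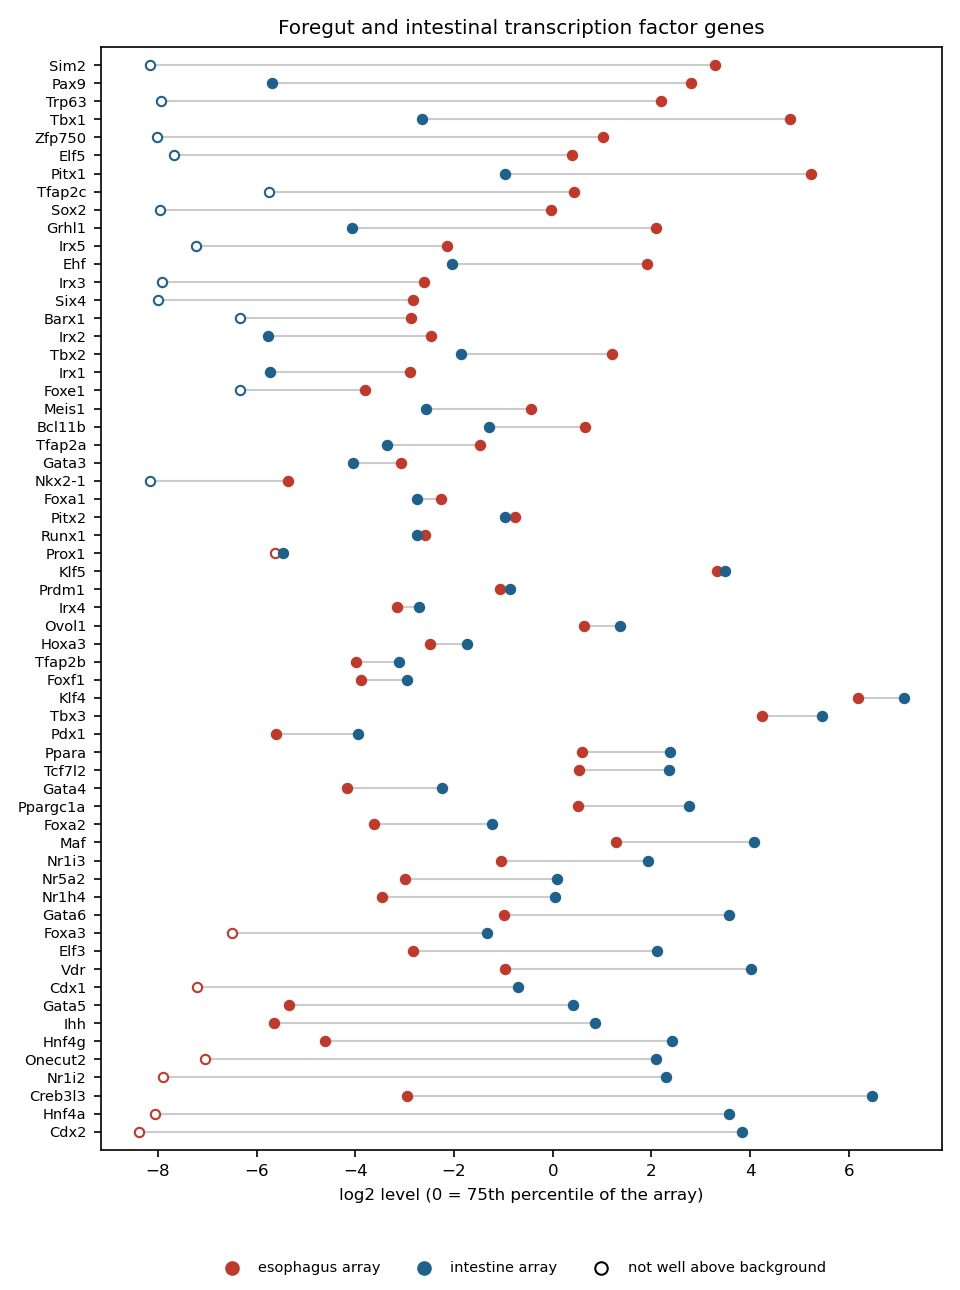
Log2 levels (0 is the 75th percentile of the array) of foregut, squamous and intestinal transcription factor genes on the esophagus array (red) and intestine array (blue), ordered by difference; open circles were not well above background. Sim2, Pax9 and Trp63 are at the esophagus end, Klf4 and Klf5 near the middle, and Cdx2 and Hnf4a at the intestine end.

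Hox genes, which mark position along the body axis, were mostly within 4-fold. Of 25 compared, 3 were 4-fold higher in each organ, against 9.39% and 10.9% of all genes compared. Hoxd8, Hoxd4 and Hoxd9 were 11-fold, 8.63-fold and 4.34-fold higher in esophagus, and Hoxb7, Hoxb5 and Hoxb8 were 25.9-fold, 7.48-fold and at least 6.27-fold higher in intestine. The Hoxa genes compared were all within 4-fold. In hedgehog signalling 2 ligands differed while the response genes were within 4-fold. Ihh was at 0.86 in intestine and -5.65 in esophagus (91.4-fold), Dhh was at 0.04 in esophagus and -4.43 in intestine (22.2-fold), Shh was not well above background in either, and Ptch1 and Gli1 differed by 0.45 and 1.01. Dhh was at 0.4 on the lung array. Of 26 BMP and Notch pathway genes, 6 were higher in esophagus and 3 in intestine, against 9.39% and 10.9% of all genes compared. Their median was 0.82, or 0.12 after the lung signal was subtracted. Jag2 was at least 95.3-fold and Notch3 42.6-fold higher in esophagus, and the BMP inhibitor Grem1 was 12.2-fold higher in intestine.

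Connective tissue and vessel genes were higher in esophagus by smaller factors. Of 26 fibroblast and matrix genes, 20 were at least 4-fold higher in esophagus and none in intestine, with a median of 2.48. The fibrillar collagens Col1a1 (4.81 and 2.07), Col1a2 (7.31 and 4.42) and Col3a1 (6.06 and 3.55) were 6.65-fold, 7.4-fold and 5.71-fold higher. The fascia and tendon genes Thbs4, Mfap5 and Comp were 28-fold, 24.6-fold and 15.3-fold higher. The tendon gene Tnmd was not well above background in either organ, and the small proteoglycans Fmod and Dcn differed by 0.24 and 1.08. Of 18 endothelial genes, 12 were 4-fold higher in esophagus and none in intestine, with a median of 2.8. Flt1 was 13.6-fold, Tek 11.5-fold, Vwf 9.99-fold and Pecam1 8.17-fold higher. The lung array had more of these transcripts than any other on the slide, with a summed signal of 437 against 54.9 in esophagus, 25.9 in stomach and 7.59 in intestine, and with 4.15% of the lung signal taken off 10 of the 18 remained 4-fold higher with a median of 2.12.

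Fat cell genes were mixed. Of 16 compared, 8 were 4-fold higher in intestine and 3 in esophagus, with a median of -1.87. Adipoq (2.24 and 4.48) and Cfd (5.19 and 7.4) were 4.72-fold and 4.64-fold higher in intestine. Ucp1, the uncoupling protein of brown fat, was at -1.93 in esophagus and not well above background in intestine (at least 19-fold), and Slc2a4 and Lpl, shared with muscle, were 4.16-fold and 4.12-fold higher in esophagus. Nerve genes of the gut wall were 4-fold higher in intestine for 6 of 29 and in esophagus for 3, with a median of -0.74. The shares over all genes compared were 10.9% and 9.39%. Vip and Calb2, of enteric neurons, were 4.98-fold and 5.1-fold higher in intestine, and Nos1, also found in skeletal muscle, was at least 21.9-fold higher in esophagus.

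Many lymphocyte genes were higher in intestine while most macrophage genes were within 4-fold. Of 26 T and natural killer cell genes, 16 were 4-fold higher in intestine and 3 in esophagus, with a median of -2.54. The 3 were Cd5 (14.1-fold), Ctla4 (at least 9.61-fold) and Thy1 (5.25-fold), which is also in the fibroblast list. The T cell receptor complex genes Cd3e and Cd3d differed by -0.56 and -3.68. The cytotoxic genes Gzma (3.27 in intestine and -4.74 in esophagus) and Gzmb were 258-fold and at least 191-fold higher, and Cd8a at least 95-fold, whereas Cd4 differed by 0.42. A dimmer Cd8a probe was above background on both arrays and differed by -3.18. Of 18 B and plasma cell genes, 9 were higher in intestine and none in esophagus. The antibody joining chain Jchain was 428-fold and the epithelial antibody carrier Pigr 2984-fold higher. Of 19 macrophage and dendritic genes, 1 (Ctss, 5.31-fold) was higher in intestine and none in esophagus, with a median of 0.07, and C1qa, Csf1r and Adgre1 were within 4-fold.

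Antigen presentation genes were higher in intestine for 15 of 18 and in esophagus for none, with a median of -2.63. The class I genes H2-K1 (4.99 and 8.35) and B2m (5.14 and 7.78) were 10.3-fold and 6.25-fold higher, the class II gene H2-Ab1 9.9-fold, the immunoproteasome subunit Psmb8 9.12-fold, and the nonclassical H2-T3, a thymus leukaemia antigen of enterocytes, at least 357-fold. Interferon-induced genes did not follow as a group, with a median of -0.66. Of 14, 2 were higher in intestine and 1 in esophagus, against 10.9% and 9.39% of all genes compared.

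Detoxifying enzymes mostly favoured intestine. Of 46 compared, 27 were 4-fold higher in intestine and 5 in esophagus, with a median of -3.35. Cyp2d26, Cyp4f14 and Cyp3a13 were 1457-fold, 1599-fold and 90.5-fold higher, and the sulphotransferase Sult1b1 at least 5654-fold. From Ugt2b34 to Sult1d1 on chromosome 5, 9 consecutive genes of glucuronide and sulphate transfer were higher in intestine, its longest run, with a median of -6.89. The 5 higher in esophagus were Cyp2f2, one of the lung list, Aldh3a1 (1.82 in esophagus and not well above background in intestine, at least 256-fold), Adh7 (60.9-fold), Gsta4 and Cyp26b1. On the stomach array Adh7 was at 0.55 and Aldh3a1 at 0.7, and on the lung array at -4.54 and -3.86. Amino acid and sugar metabolism genes were higher in intestine for 13 of 20, with the fructokinase Khk 44.9-fold and the mitochondrial arginase Arg2 at least 1311-fold higher. The cytosolic arginase Arg1 was 16.6-fold higher in esophagus.

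**Figure D5:**
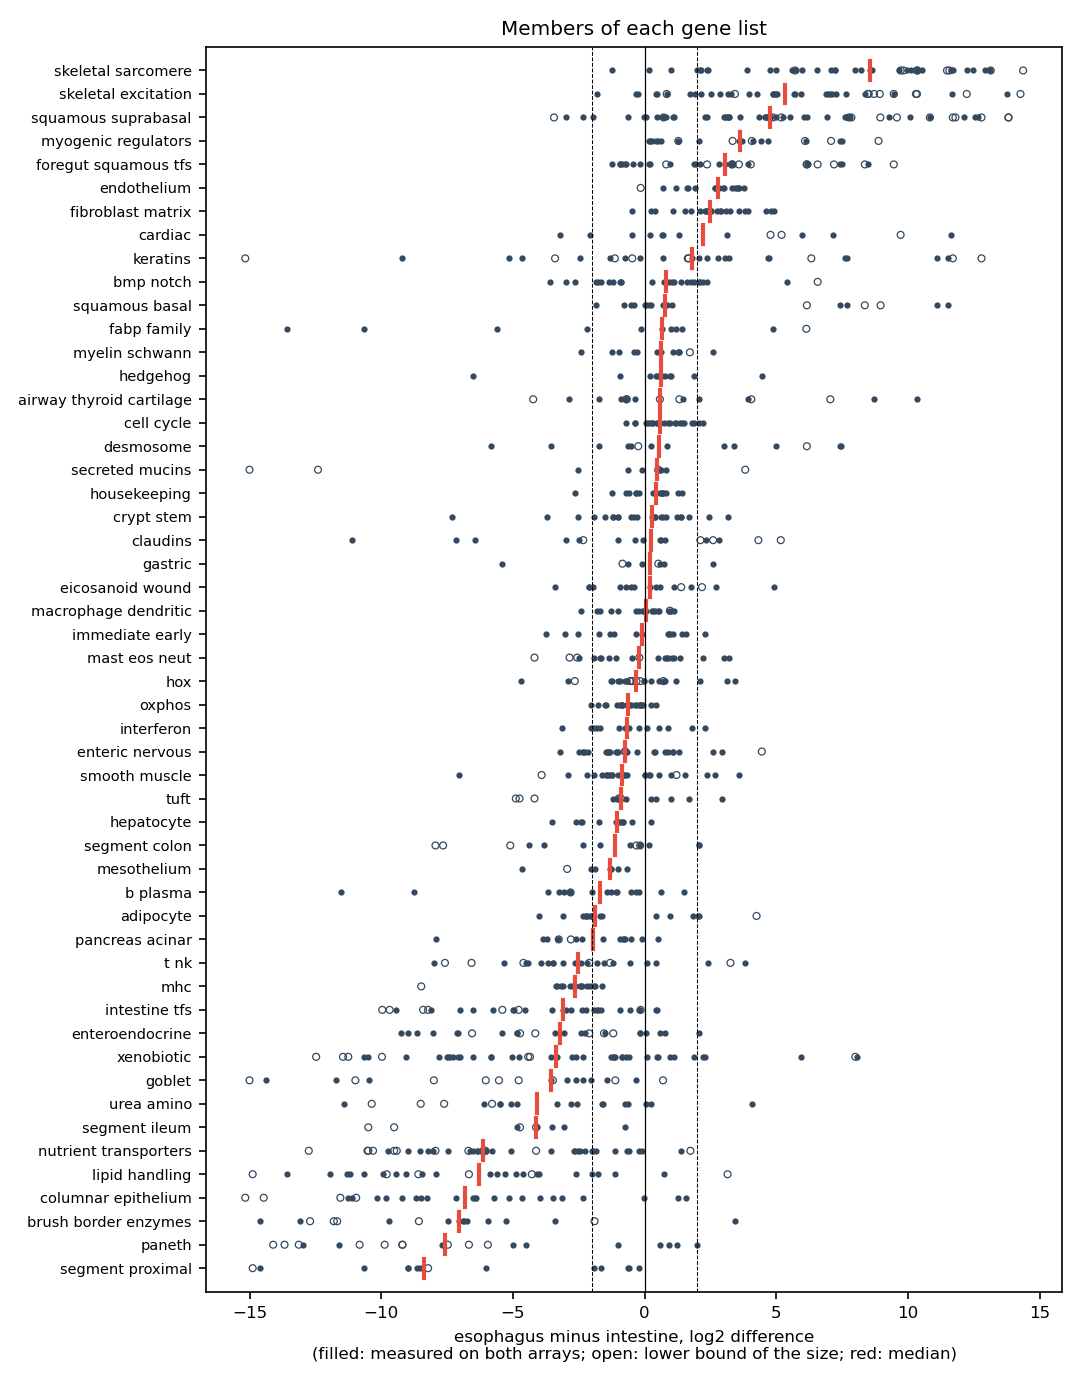
The esophagus minus intestine log2 difference of every compared member of the gene lists with at least 8 such members, ordered by median (red bar). Filled points were measured on both arrays, open points are lower bounds and dashed lines mark 4-fold. Skeletal sarcomere genes are at the esophagus end with a median of 8.55 and genes of the proximal intestine at the other with -8.37.

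Genes used in every cell gave the scale of differences to set beside these. Of 19 housekeeping genes 1, B2m, differed 4-fold, and the median was 0.43. Of 25 respiratory chain genes 1, Cox6a1, differed 4-fold, with a median of -0.64, and the heart and muscle subunits Cox6a2 and Cox8b were 698-fold and 32.1-fold higher in esophagus. Stress and immediate early genes, which respond to handling of tissue, were mixed, with Fos 13.5-fold and Zfp36 8.05-fold higher in intestine and Hspa1a 4.94-fold higher in esophagus. Of 8 gastric genes compared, Ghrl (42.6-fold) was 4-fold higher in intestine and Chia1 (6.05-fold) in esophagus, and Chia1 was no longer higher after the lung signal was subtracted. Pancreatic enzyme genes had a summed signal of 14.9 in intestine, 2.95 in esophagus and 2030 in stomach. The stomach and intestine sums rest mostly on a few of these genes. In stomach Clps was at 10.13 and Pla2g1b at 9.75, the next highest, Pnliprp1, at 3.95, and Cpa1 at -5.56. In intestine Clps was the highest at 3.13, followed by Rnase1 at 0.76. The Y-linked genes Ddx3y, Eif2s3y, Kdm5d, Uty and Zfy1 were not well above background in either organ, Zfy2 was at -4.02 in both, and Xist was at 1.12 in esophagus and -1.01 in intestine.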

How the data were processed

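Values came from the scanner files of the 4 adult organ arrays, of which esophagus and intestine were compared. Spot intensity (gProcessedSignal) was deposited as background-corrected by Agilent Feature Extraction 10.5.1.1, per the file headers. The authors also deposited a table of log2 values, used as an alternative. It correlated with the scaled scanner values at 0.9998 (esophagus) and 1 (intestine), and its column medians were -2.75 and -2.98. Its scale is thus log2. The software version given in the submitters' processing notes is 10.5.

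Control and outlier spots (243 on the esophagus array and 40 on the intestine array) were left out, log2 signals were averaged per probe and the 75th percentile of each array was subtracted. A gene took the probe with the highest mean level over both arrays, and its background flag was that probe's; for 34 genes with a flag below background another probe was above it. A probe counted as well above background when at least 0.5 of its spots carried the scanner's flag, and no spot was saturated. Of 41174 probes, 24432 were named through RefSeq (24375 by accession and 57 by symbol). On the esophagus array 83.9% of named genes were well above background, and on the intestine array 84.6%. The array signals give no read depth, and 1 array per organ limits precision. Spike-in probes (10 probes) differed by a median of -0.56 after scaling. Promoters were read from RefSeq, build GRCm38.p6.

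Genes named were the 20 largest measured differences and 15 largest bounds on each side, without clone or predicted names, and members of 54 gene lists. Those lists, the lung list and the members were chosen with earlier results of these data known. Genes of runs and clusters outside the lists were named after their values were seen, as were the promoters, the 2 genes with the largest difference per group that hold the motif. The counting was tested on simulated data. Alternatives were median centring, quantile normalization, normexp (offset 50, limma 3.58.1 in R 4.3.3), the deposited table, other filters, the mean of all probes, other folds and the subtraction of lung signal, the last chosen after the data were seen. Scripts ran in Python 3.11.15 with numpy 2.4.6, pandas 2.3.3, scipy 1.17.1 and matplotlib 3.10.9. Proteins and genome sequence were not used here, and single values of a few list members are not reported here, although the counts and medians hold them.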

Additional observations from a re-analysis of the deposited data

How the results depend on the processing

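The comparison rests on 1 array per organ, so animal, dissection and hybridization cannot be told apart from the organ. At 4-fold, 1403 genes were higher in esophagus and 1624 in intestine. At 2-fold the counts were 3233 and 3288, and at 8-fold 749 and 897. With normexp background correction 791 genes were higher in esophagus and 1178 in intestine, and 64.8% of the 4-fold genes remained; the cause was not tested. The other settings at 4-fold gave 1106 to 1528 genes in esophagus and 1347 to 1862 in intestine. Median centring and normexp moved the median of all genes to -0.21 and -0.17, and subtracting lung signal moved it to -0.08. Genes in runs of at least 3 neighbours numbered 307 at 4-fold and 157 at 8-fold.

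Among the 588 listed genes at least 4-fold different, Tpm1 changed sign under the planned settings, to -0.07 with the mean of all its probes, and 113 fell below 4-fold with normexp. In the same genes, subtracting the lung signal turned Sftpc to -0.88, Chia1 to -1.26, Irx1 to -0.39 and Notch4 to -0.01, by construction for Sftpc. Of 22 list medians past 4-fold none changed sign, but 4 fell below 4-fold with normexp: foregut factors (3.05 to 0.76), myogenic regulators (3.64 to 1.21), heart genes (2.2 to 1.47) and T and NK cell genes (-2.54 to -1.96). Over genes above background on both arrays foregut factors fell to 1.87 and heart genes to 0.7, and median centring put heart genes at 1.99. The cause was not tested. No paired analysis was possible because each organ had 1 array.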

Other observations

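A few of the largest differences belonged to none of the described groups. Mt4, a metallothionein of squamous epithelium, was at 6.24 in esophagus and -4.88 in intestine, 2221-fold higher, and Calm4, a calmodulin-like gene, was 3316-fold higher. In intestine, Aoc1, which breaks down histamine, was at 7.65 and not well above background in esophagus (at least 13958-fold), and the deoxyribonuclease Dnase1 was at least 9535-fold higher. The guanylin relative Guca2b, a hormone of salt secretion, was at 9.33 in intestine and -2.16 in esophagus, 2883-fold higher. Lypd8, a secreted barrier protein, was 4747-fold higher in intestine than in esophagus and stood at 6.77 on the stomach array.

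Of 17 growth factor genes of epithelial repair compared, 3 were 4-fold higher in each organ, against 9.39% and 10.9% of all genes compared, with a median of 0.22. Egf was at 1.14 in esophagus and -3.79 in intestine (30.6-fold), and the epithelial cytokine Tslp was 6.6-fold higher in esophagus. Areg and Hbegf differed by -3.39 and -2.1, higher in intestine.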
